A study of Homo sapiens with 22 samples.

Results

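Cells of MDA-MB-231, an established human line of triple-negative breast cancer (TNBC), were treated with dexamethasone (Dex) or Compound A (CpdA), ligands of the glucocorticoid receptor (GR). In these cells, long noncoding RNAs that carry a LINC number or an antisense name were followed. They were all symbols made of LINC and a number, or ending in -AS and a digit, with at least 0.5 RPKM (reads per kilobase of transcript, scaled to the mapped reads of the sample) in at least 2 of the 10 RNA-seq samples. Of 1198 symbols with such a name, 302 passed, 222 of them antisense and 80 LINC, out of 20668 symbols in the tables and 12713 that passed the same minimum. They were chosen by their RPKM, with earlier results of these data known. The rule itself used no difference between groups. LINC01561, ZNF32-AS1 and TONSL-AS1 lay just inside, with a second highest value of 0.505, 0.501 and 0.51 RPKM, and LINC01358, LINC01530 and MMP25-AS1 just outside, at 0.497, 0.496 and 0.493. In 207 of the 302 the minimum was met in all 10 samples, and in 16 in exactly 2. FRMD6-AS1 met it only in the vehicle samples and LINC01561 only in the Dex samples of 2 h.

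The 10 samples formed 5 groups of 2 biological replicates: vehicle, 100 nM Dex for 2 h or 4 h, and 10 μM CpdA for 2 h or 4 h. Dex is a synthetic glucocorticoid and CpdA a selective GR modulator, and their doses differ. Before treatment all cells had been held in medium without phenol red, with serum stripped of steroids by charcoal, and no time is labelled for the vehicle samples. Column headers name vehicle replicate 1 for 2 h and replicate 2 for 4 h, so time and replicate cannot be told apart in that group, which served as the reference at both times. All samples came from one cell line, so the replicates measure the spread between cultures and not between tumours. In bulk RNA, fewer cells with an RNA and less of it per cell cannot be told apart.

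The labels matched their marker genes. FKBP5, a textbook GR target, stood at 5.94 and 7.06 RPKM in the vehicle samples, at 73.4 to 212 with Dex and at 5.97 to 7.96 with CpdA. Its log2 change at 4 h of CpdA was 0.28 (limma adjusted p = 0.0226). TSC22D3, PDK4 and PER1, listed with it as Dex targets, rose by 5.064, 8.134 and 4.401 at 2 h of Dex. At 2 h of CpdA they were also called higher by limma, by 0.443, 0.552 and 1.216 (adjusted p = 0.00918, 0.0232 and 0.00328). The mesenchymal filament gene VIM ranged from 1267 to 1464 RPKM, ESR1 and PGR did not exceed 0.00484 and 0.00253, and the leukocyte and T-cell genes PTPRC and CD3E did not exceed 0.063 and 0.0114. ERBB2 and EPCAM, listed as low in this line, were present at 15.9 to 21.6 and 8.02 to 10.6 RPKM. COL1A1, a fibroblast gene listed as not of this line, read at 1.23 to 2.6 RPKM. NR3C1, the gene of GR itself, lay at 22.9 and 20.4 RPKM in the vehicle samples, 9.96 and 12.1 after 4 h of Dex and 22.96 and 22.1 after 4 h of CpdA. Mapped reads recovered from the steps in RPKM ranged from 51.3 M to 62.1 M a sample, and both vehicle samples, at 51.3 M and 51.9 M, were shallower than every treated sample.

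As background, an antisense RNA is transcribed from the strand opposite a gene and is named after that gene, and a LINC RNA lies between genes. Antisense transcripts may overlap exons of the sense gene or may start at its promoter and run away from it, and current nomenclature gives many of the latter the ending -DT (divergent transcript). Long noncoding RNAs are generally less abundant than messenger RNAs, and some act as scaffolds or decoys for proteins and microRNAs, some host small nucleolar RNAs and some encode microproteins. Hormone-bound GR binds DNA as a dimer at a palindrome of a pair of hexamers, the glucocorticoid response element, and raises or lowers transcription of genes often far from the site.

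The rows were matched to current annotation to see what each name stands for. RefSeq held 301 of the 302 and gives 64 of them another symbol today, among them 26 antisense RNAs now named as divergent transcripts. GENCODE on GRCh37 placed 291. It types 7 LINC and 5 antisense rows as protein coding, so the list is one of names and not strictly of noncoding RNAs. The TruSeq libraries did not mark the strand, so reads from a gene and from its antisense partner cannot be told apart where their exons overlap.

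These RNAs were scarce. Their median of mean RPKM over the 10 samples was 1.16 (1.07 for antisense and 1.29 for LINC RNAs), against 8.4 for all genes past the minimum and 11.4 for the sense genes of the pairs below. A mean under 1 RPKM was found for 133 and a mean of at least 10 for 17. Together the 302 took 0.384% to 0.415% of the summed RPKM of a sample, lowest in the CpdA samples of 4 h and highest in the vehicle samples. Biological replicates differed by a median of 0.129 on the log2(RPKM + 0.1) scale in these RNAs and by 0.069 in all genes, so their error was larger. For 139 of them the RPKM values resolved into whole reads (within 0.02 of a read), with a median of 105.4 mean reads a sample and a minimum of 5.

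**Figure D1:**
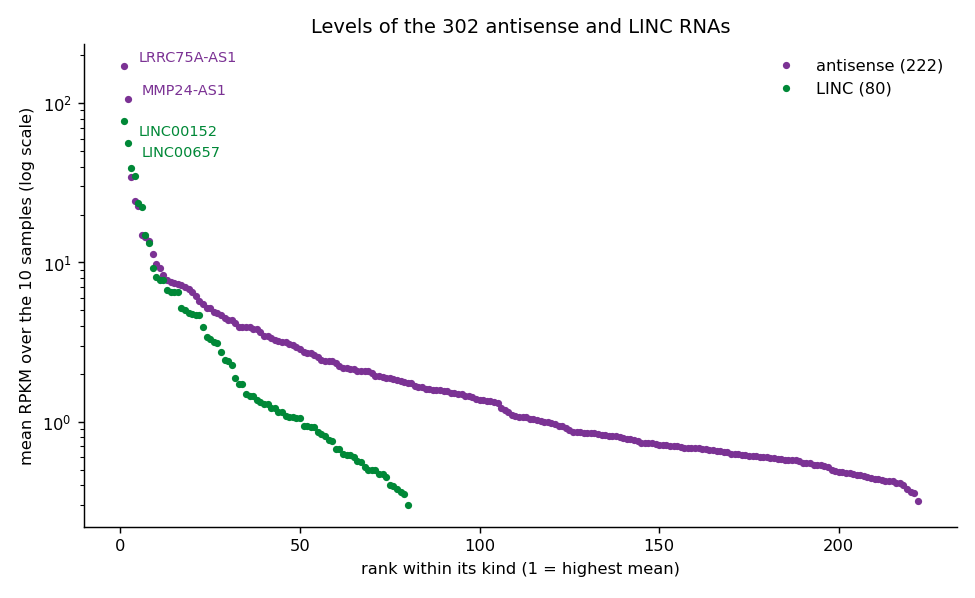
Mean RPKM over the 10 samples (y axis, log scale) of the 222 antisense and 80 LINC RNAs, ranked within each kind (x axis). LRRC75A-AS1 and MMP24-AS1 lead the antisense RNAs at 171 and 106 RPKM, LINC00152 and LINC00657 lead the LINC RNAs at 77.2 and 56.3, and most points lie near 1 RPKM.

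The most abundant antisense row was LRRC75A-AS1, a host of small nucleolar RNAs now named SNHG29, at 160.4 to 181 RPKM and 144 times the mean level of LRRC75A. MMP24-AS1 followed at 97.6 to 127 RPKM, then FGD5-AS1 at 31.8 to 37.01, ZBED5-AS1 at 21.9 to 25.96 and TAPT1-AS1 at 20.9 to 24.3. None of these 5 was called in any treatment by limma, with the smallest adjusted p at 0.117 (FGD5-AS1, CpdA 4 h). The first 3 ranges do not overlap each other or the rest, whereas those of ZBED5-AS1 and TAPT1-AS1 overlap.

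Among LINC rows, the leaders were LINC00152 (CYTOR, an RNA first described as a regulator of cytoskeleton genes) and LINC00657 (NORAD, which binds Pumilio proteins and guards chromosome number). LINC00152 stood at 82.9 and 87.3 RPKM in the vehicle samples, 75.2 and 68.98 at 2 h and 68.6 and 58.4 at 4 h of Dex, and 76.98 to 85.9 with CpdA. It fell after 4 h of Dex, with both samples below both vehicle samples, by 0.42 on the log2 scale (SE 0.08, limma adjusted p = 0.0037). Its log2 change at 4 h of CpdA was -0.08 (SE 0.08, adjusted p = 0.536).

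LINC00657 fell with CpdA and was not called with Dex. Its RPKM was 63.2 and 58.9 with vehicle, 69.02 and 69.1 at 2 h and 63.3 and 71.2 at 4 h of Dex, and 40.5 and 41.5 at 2 h and 42.5 and 43.5 at 4 h of CpdA. All 4 CpdA samples lay below all others, whereas the Dex samples reached down to the level of the vehicle samples. The limma log2 change was -0.57 (SE 0.06, adjusted p = 0.000774) at 2 h and -0.503 (SE 0.06, adjusted p = 0.000495) at 4 h of CpdA, against 0.18 (SE 0.06, adjusted p = 0.0999) and 0.14 (SE 0.06, adjusted p = 0.117) with Dex. The direct contrast of the ligands, at different doses, gave 0.75 (SE 0.06, adjusted p = 2.61e-05) at 2 h and 0.64 (SE 0.06, adjusted p = 3.6e-05) at 4 h, higher with Dex. The other abundant LINC rows, LINC01420 (NBDY, which encodes a microprotein of the messenger RNA decapping complex) at 37.98 to 41.97 RPKM and LINC00493 (SMIM26, a small membrane protein) at 29.99 to 38.1 RPKM, were not called in any treatment. LINC00673 completes the leading 5 at a mean of 23.6 RPKM and is described with the Dex-induced RNAs.

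Next, how many of the 302 moved with each treatment was counted. A gene was called when its Benjamini-Hochberg adjusted p, taken over all 12713 genes in the limma fit, was under 0.05. Dex changed 16 of the 302 at 2 h (5.3%; 8 rose and 8 fell), where 10.3% of all genes were called, and 56 at 4 h (18.5%; 20 rose and 36 fell), where 27.4% of all genes were called. CpdA changed 7 at 2 h (2.32%; 2 rose and 5 fell) against a background of 6.18%, and 47 at 4 h (15.6%; 7 rose and 40 fell) against 20.5%. Shares of these RNAs were thus below those of all genes in each treatment. Genes of low level, those with a mean under 2.91 RPKM (the upper quartile of the 302), were called at 7.42% and 21.6% with Dex and at 2.71% and 11.2% with CpdA, at 2 h and 4 h. In the background, 4.49% of genes rose and 5.82% fell at 2 h of Dex, 9.26% and 18.2% at 4 h of Dex, 1.89% and 4.29% at 2 h of CpdA, and 6.76% and 13.8% at 4 h of CpdA. Another scaling moved the split between directions: at 4 h of Dex to 28 up and 22 down with quantile normalization and 27 and 22 with median scaling, and at 4 h of CpdA to 9 and 27 and to 10 and 29. Single libraries mattered too, since the count was 9 at 2 h of Dex without Dex 2 h replicate 1, 31 at 4 h of Dex without vehicle replicate 1, and 28 at 4 h of CpdA without vehicle replicate 1 or 22 and 23 without CpdA 4 h replicate 1 or 2. At 2 h of CpdA it was 1 without either CpdA 2 h replicate and 15 and 16 without Dex 4 h replicate 1 or 2.

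LINC RNAs were called at larger shares than antisense RNAs in each treatment, a difference that was not tested. The 80 LINC rows gave 6 calls at 2 h of Dex (7.5%), 20 at 4 h of Dex (25%), 4 at 2 h of CpdA (5%) and 19 at 4 h of CpdA (23.8%). The 222 antisense rows gave 10 (4.5%), 36 (16.2%), 3 (1.35%) and 28 (12.6%). The median log2 change of the 302 was -0.059 and -0.071 at 2 h and 4 h of Dex and -0.055 and -0.087 at 2 h and 4 h of CpdA, and that of all genes was -0.018, -0.052, -0.016 and -0.037.

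**Figure D2:**
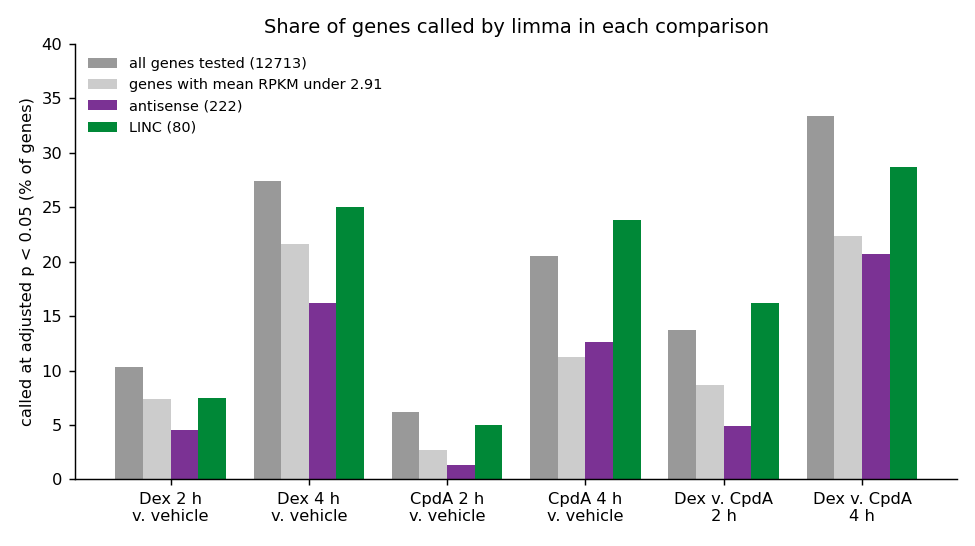
Share of genes called at an adjusted p under 0.05 (y axis, percent) in each comparison (x axis), as bars for all 12713 genes tested, for genes with a mean under 2.91 RPKM, for the 222 antisense RNAs and for the 80 LINC RNAs. In all 6 comparisons the antisense bar is below that of all genes, from 1.35% against 6.18% at 2 h of CpdA to 20.7% against 33.4% for Dex against CpdA at 4 h, while the LINC bar exceeds that of all genes for CpdA at 4 h and for Dex against CpdA at 2 h.

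Past a fold change of 2 the list was short. Dex raised 3 and lowered 2 of the 302 at 2 h (1.34% and 0.676% of all genes did so), and raised 7 and lowered 4 at 4 h (2.1% and 1.68% of all genes). CpdA raised 1 at 2 h (0.338% of all genes rose and 0.149% fell so far) and lowered 1 at 4 h (0.535% of all genes rose and 0.354% fell so far). These calls concern 12 RNAs, 7 LINC and 5 antisense, which are taken in turn. How they met the minimum bears on these calls, since an RNA that passes it only where it is high had to differ. LINC00511 and IGFBP7-AS1 reached 0.5 RPKM only in Dex samples, BRE-AS1 only in CpdA samples, LINC01564 only in the Dex and CpdA samples of 4 h, and LINC01443 only in the vehicle samples and 1 CpdA sample of 2 h. Tested with no minimum, over all symbols, IGFBP7-AS1 was not called at 4 h of Dex (adjusted p = 0.0657), and the other calls past 2-fold of the 12 over vehicle passed, with LINC00511 at 0.00672 and 0.00329 at 2 h and 4 h of Dex, BRE-AS1 at 0.0067, LINC01564 at 0.0455 and LINC01443 at 0.0041. Of the 302, 16 reached the minimum in no vehicle sample, 5 in Dex samples only and 2 in CpdA samples only.

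**Figure D3:**
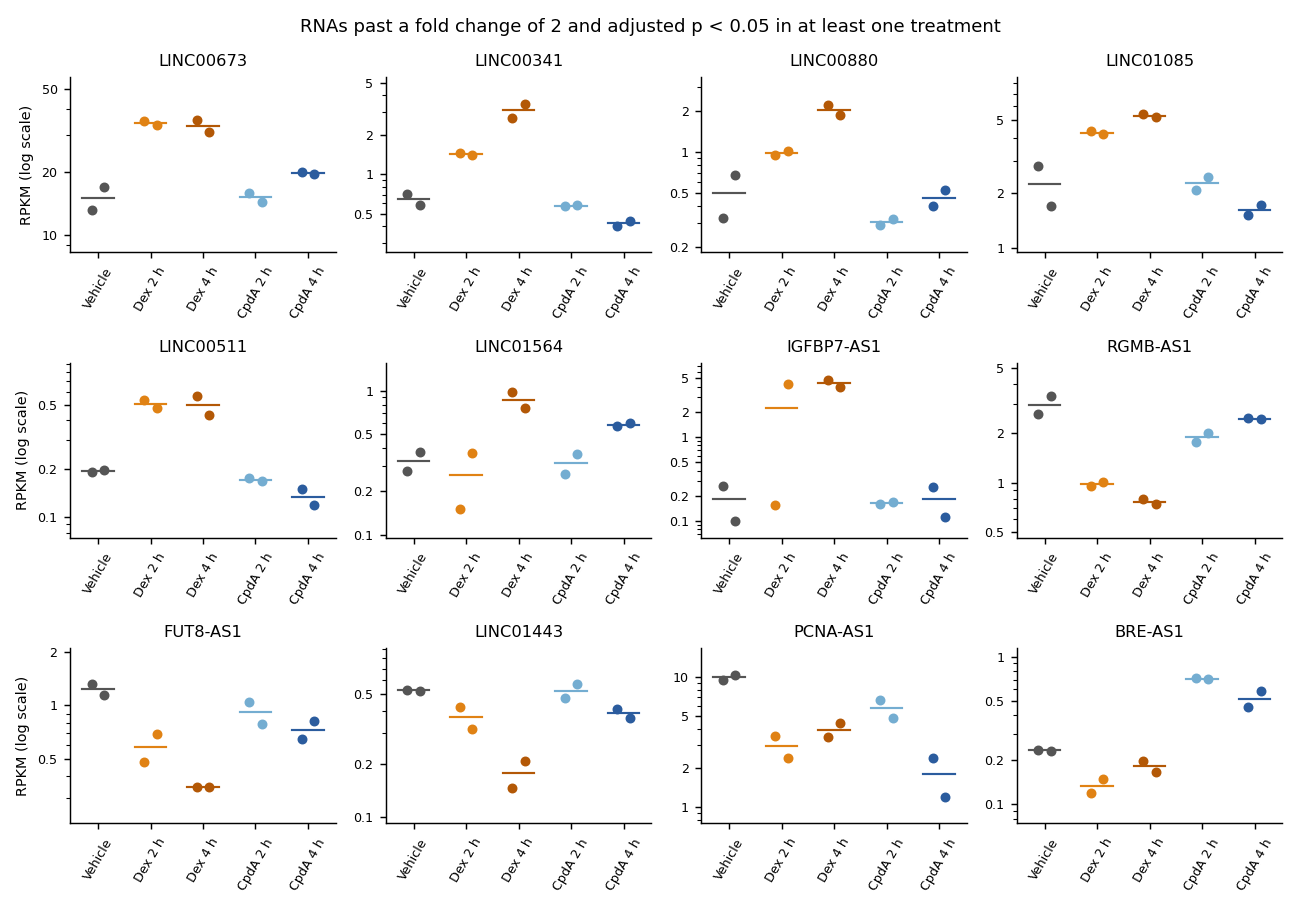
RPKM (y axis, log scale) of the 12 RNAs past a fold change of 2 in at least 1 treatment, by group (x axis), with a point for each of the 2 replicates and a line at their mean. LINC00673, LINC00341, LINC00880, LINC01085 and LINC00511 are higher in all Dex samples of 4 h than in any vehicle or CpdA sample, RGMB-AS1 is lower in all 4 Dex samples than in the others, and IGFBP7-AS1 splits the Dex 2 h replicates into 0.155 and 4.29 RPKM.

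LINC00673, a spliced RNA of chromosome 17q studied in several carcinomas, was the most abundant of them. It measured 13.3 and 16.97 RPKM with vehicle, 35.3 and 33.7 at 2 h and 35.6 and 31.2 at 4 h of Dex, and 15.99 and 14.5 at 2 h and 20.1 and 19.6 at 4 h of CpdA. All Dex samples lay above all others, and levels at the 2 times were not called different: its limma log2 change over vehicle was 1.196 (SE 0.11, adjusted p = 8.67e-05) at 2 h and 1.15 (SE 0.11, adjusted p = 5.83e-05) at 4 h, and -0.05 (SE 0.11, adjusted p = 0.792) between the times. At 4 h of CpdA both samples were above both vehicle samples, with a log2 change of 0.402 (SE 0.11, adjusted p = 0.0301), which was 0.23 (adjusted p = 0.14) without vehicle replicate 1, 0.38 (0.147) without CpdA 4 h replicate 1 and 0.42 (0.109) without CpdA 4 h replicate 2. At 2 h of CpdA the samples lay within the range of the vehicle samples.

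LINC00511, an RNA reported in breast cancer cell growth, lies beside it on the same strand. RefSeq keeps both as neighbours whose starts are 47668 bases apart, while the GENCODE body of LINC00511 (chr17:70286232-70636611 of GRCh37, minus strand) is 350380 bases long and so reaches past that distance, and how far the rows share reads was not tested. It was much scarcer, at 0.1895 and 0.196 RPKM with vehicle, 0.538 and 0.476 at 2 h and 0.5702 and 0.432 at 4 h of Dex, and 0.119 to 0.174 with CpdA. In reads, these were 22 and 23 with vehicle, 71 and 67 at 2 h and 70 and 55 at 4 h of Dex. All 4 Dex samples exceeded all others, with limma log2 changes of 1.05 (SE 0.21, adjusted p = 0.0108) at 2 h and 1.03 (SE 0.21, adjusted p = 0.00576) at 4 h, and the 2 h change was 0.98 (adjusted p = 0.089) without Dex 2 h replicate 1. SOX9 encodes a transcription factor of progenitor cells. It is the nearest tested protein-coding gene at lower coordinates, 163675 bases from the GENCODE body of LINC00511. SOX9 ran the other way with Dex. It went from 35.7 and 34.5 RPKM with vehicle to 10.3 and 10.9 at 2 h and 7.09 and 7.82 at 4 h. SLC39A11, a zinc transporter gene 5477 bases away at higher coordinates, was not called with Dex, at 4.42 and 4.56 RPKM with vehicle, 4.99 and 4.85 at 2 h and 4.66 and 4.29 at 4 h.

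LINC00341 is a row of an older annotation, since RefSeq now lists that symbol under SYNE3, the gene of the nuclear envelope protein nesprin-3. It measured 0.712 and 0.579 RPKM with vehicle, 1.45 and 1.403 at 2 h and 2.698 and 3.44 at 4 h of Dex, and 0.571 and 0.579 at 2 h and 0.406 and 0.4399 at 4 h of CpdA. It was higher at 4 h than at 2 h of Dex, whereas at 4 h of CpdA it lay below every vehicle sample. The limma log2 changes were 1.04 (SE 0.15, adjusted p = 0.00149), 2.08 (SE 0.15, adjusted p = 7.54e-06), -0.14 (SE 0.15, adjusted p = 0.665) and -0.51 (SE 0.15, adjusted p = 0.0383). SYNE3 itself stood at 2.75 and 2.96 RPKM with vehicle, 10.1 and 12.3 at 4 h of Dex and 1.74 and 1.84 at 4 h of CpdA, the same order of groups, and how far both rows share reads was not tested.

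A later rise was seen in LINC00880 (chr3:156799456-156846384, minus strand). It measured 0.329 and 0.678 RPKM with vehicle, 0.954 and 1.01 at 2 h and 2.22 and 1.89 at 4 h of Dex, and 0.294 to 0.525 with CpdA. The vehicle replicates differ by more than 2-fold here, and the 2 h samples were above both without passing the test. The limma log2 change was 0.91 (SE 0.26, adjusted p = 0.0569) at 2 h and 1.896 (SE 0.26, adjusted p = 0.000517) at 4 h. LINC01085 (chr4:14113592-14141676, plus strand) stood at 2.79 and 1.698 RPKM with vehicle, 4.36 and 4.19 at 2 h and 5.38 and 5.18 at 4 h of Dex, and 1.505 to 2.43 with CpdA. Its Dex samples were all above its vehicle and CpdA samples, with limma log2 changes of 0.94 (SE 0.19, adjusted p = 0.011) and 1.24 (SE 0.19, adjusted p = 0.00107).

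LINC01564 and IGFBP7-AS1 were the 2 least certain of the RNAs raised by Dex. LINC01564 (chr6:53481269-53571822, plus strand) gave 8 and 11 reads with vehicle, 5 and 13 at 2 h and 30 and 24 at 4 h of Dex, and 9 and 12 at 2 h and 19 and 20 at 4 h of CpdA. Its limma log2 change at 4 h of Dex was 1.19 (SE 0.30, adjusted p = 0.0161), which was 1.02 (adjusted p = 0.0926) without vehicle replicate 1 and 1.02 (0.0867) without Dex 4 h replicate 1, and at 4 h of CpdA it was 0.69 (SE 0.30, adjusted p = 0.142). The row overlaps GCLC, the catalytic subunit of the enzyme that makes the glutathione precursor. GCLC rose from 8.803 and 10.97 RPKM with vehicle to 36.9 and 40.3 at 4 h of Dex and 32.2 and 31.5 at 4 h of CpdA. How far both rows share reads was not tested. IGFBP7-AS1 (chr4:57975928-58073625, plus strand) measured 0.264 and 0.101 RPKM with vehicle, 0.155 and 4.29 at 2 h of Dex, 4.81 and 3.95 at 4 h of Dex and 0.114 to 0.254 with CpdA. No sample lay between these low and high values, and the Dex 2 h replicates fell on either side. At 4 h of Dex its limma log2 change was 4.04 (SE 1.02, adjusted p = 0.0166), with an adjusted p of 0.0912 (change 3.62) without vehicle replicate 2 and 0.0662 (3.90) without Dex 4 h replicate 1. IGFBP7, a secreted binding protein of insulin-like growth factors, read at 533 to 700.5 RPKM with no such split.

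Glucocorticoid response element letters were looked for in the promoters (250 bases before to 50 after the start, from RefSeq, GRCh38.p14) to give the sequence context of the induced RNAs. The half-site AGAACA or its reverse complement was in 14.8% of all 35116 promoters and in 33 of the 231 matched promoters of these RNAs (14.3%). The palindrome of GNACA, 3 free bases and TGTNC, which was searched on both strands and can hold the half-site, was in 0.39% of all promoters and in 1 of the 231 (0.433%). The promoters of 3 Dex-induced LINC RNAs and the single promoter with the palindrome, that of NDUFB2-AS1, are shown with the matched letters in capitals. LINC00341, which RefSeq lists under SYNE3, is among the 33 with a half-site, but no promoter of its own was available to show. LINC00673 (chr17:72592755-72593054, minus strand) and LINC01085 (chr4:14111718-14112017, plus strand) each hold 1 half-site, LINC00511 (chr17:72640423-72640722, minus strand) none, and NDUFB2-AS1 (chr7:140697028-140697327, minus strand) the palindrome at base 266 of the window.
LINC00673: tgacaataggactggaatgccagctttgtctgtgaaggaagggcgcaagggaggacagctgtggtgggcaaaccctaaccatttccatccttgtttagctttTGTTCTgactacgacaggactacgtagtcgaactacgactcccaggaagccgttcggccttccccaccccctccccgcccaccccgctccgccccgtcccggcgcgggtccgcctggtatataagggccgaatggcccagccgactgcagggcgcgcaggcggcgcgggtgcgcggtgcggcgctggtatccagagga
LINC01085: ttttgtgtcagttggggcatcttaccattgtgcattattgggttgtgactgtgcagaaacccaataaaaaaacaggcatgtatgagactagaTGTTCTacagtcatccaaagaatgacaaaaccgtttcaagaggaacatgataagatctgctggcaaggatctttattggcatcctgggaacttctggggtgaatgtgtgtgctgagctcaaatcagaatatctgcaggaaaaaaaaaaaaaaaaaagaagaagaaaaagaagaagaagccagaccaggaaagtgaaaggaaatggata
LINC00511: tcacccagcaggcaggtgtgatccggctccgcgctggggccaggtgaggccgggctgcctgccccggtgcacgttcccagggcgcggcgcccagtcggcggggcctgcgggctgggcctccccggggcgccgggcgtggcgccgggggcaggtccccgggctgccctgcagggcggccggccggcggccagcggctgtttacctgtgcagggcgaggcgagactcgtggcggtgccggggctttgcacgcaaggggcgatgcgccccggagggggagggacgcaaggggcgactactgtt
NDUFB2-AS1: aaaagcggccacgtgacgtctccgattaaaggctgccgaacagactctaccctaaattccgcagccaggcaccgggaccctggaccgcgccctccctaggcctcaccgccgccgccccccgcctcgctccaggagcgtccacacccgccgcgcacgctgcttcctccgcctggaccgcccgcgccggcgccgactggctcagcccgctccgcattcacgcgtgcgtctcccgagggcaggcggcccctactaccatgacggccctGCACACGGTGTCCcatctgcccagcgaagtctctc

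NDUFB2-AS1, named only for that match, read at 0.532 and 0.952 RPKM with vehicle, 0.632 and 0.656 at 2 h and 0.654 and 0.767 at 4 h of Dex and 0.439 to 0.658 with CpdA, and was not called in any treatment. Its Dex values lay between those of the 2 vehicle samples. A match of letters in a window of 300 bases describes the sequence and is not evidence of binding.

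Of the RNAs lowered by Dex, RGMB-AS1 fell the most at 4 h, along with its sense gene. Exons of the pair overlap, and how far both rows share reads was not tested. RGMB encodes a co-receptor of bone morphogenetic proteins. RGMB-AS1 measured 2.61 and 3.36 RPKM with vehicle, 0.964 and 1.01 at 2 h and 0.794 and 0.741 at 4 h of Dex, and 1.78 and 2.002 at 2 h and 2.48 and 2.44 at 4 h of CpdA. The Dex samples were all below all others, with limma log2 changes of -1.49 (SE 0.12, adjusted p = 5e-05) and -1.82 (SE 0.12, adjusted p = 6.28e-06), and CpdA lowered it at 2 h by 0.62 on the log2 scale (SE 0.12, adjusted p = 0.0202) with -0.26 (SE 0.12, adjusted p = 0.18) at 4 h.

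FUT8-AS1 (chr14:65877888-65879408, minus strand) lies across FUT8, the gene of the core fucosyltransferase of glycoproteins. It stood at 1.31 and 1.15 RPKM with vehicle, 0.482 and 0.686 at 2 h and 0.345 and 0.346 at 4 h of Dex, and 1.04 and 0.788 at 2 h and 0.645 and 0.816 at 4 h of CpdA. Every treated sample was below both vehicle samples, and the Dex samples of 4 h were lowest. The limma log2 changes were -0.97 (SE 0.20, adjusted p = 0.0118), -1.58 (SE 0.20, adjusted p = 0.000326), -0.401 (SE 0.20, adjusted p = 0.296) and -0.69 (SE 0.20, adjusted p = 0.0376). LINC01443 (chr18:14946266-14974214, plus strand) passed the test at 4 h of Dex alone, where it fell from 0.532 and 0.525 RPKM (51 and 51 reads) with vehicle to 0.148 and 0.209 RPKM (15 and 22 reads), a limma log2 change of -1.18 (SE 0.20, adjusted p = 0.00217).

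PCNA-AS1 fell with both ligands. PCNA, the sliding clamp of DNA replication, changed on the log2 scale by -0.16 (SE 0.04, adjusted p = 0.0295) at 4 h of Dex and -0.18 (SE 0.04, adjusted p = 0.024) at 4 h of CpdA by limma. PCNA-AS1 measured 9.597 and 10.4 RPKM with vehicle, 3.56 and 2.38 at 2 h and 3.46 and 4.45 at 4 h of Dex, and 6.65 and 4.88 at 2 h and 2.38 and 1.2 at 4 h of CpdA. Both vehicle samples were above all 8 treated samples, but replicates of a treated group differed by up to about 2-fold. The limma log2 changes were -1.75 (SE 0.30, adjusted p = 0.00468) and -1.33 (SE 0.30, adjusted p = 0.00931) with Dex and -0.802 (SE 0.30, adjusted p = 0.162) and -2.49 (SE 0.30, adjusted p = 0.000564) with CpdA. With no moderation of the variance both calls with Dex were lost (limma adjusted p = 0.0717 at 2 h and 0.0704 at 4 h). At 4 h of Dex the change was -1.27 (adjusted p = 0.0529) without vehicle replicate 2 and -1.15 (0.0537) without Dex 4 h replicate 1. Read at about 100 RPKM, PCNA ranged from 93.9 to 109 RPKM over the 10 samples.

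The only antisense or LINC RNA past a fold change of 2 with CpdA in the upward direction was BRE-AS1, now BABAM2-AS1, which overlaps the gene of a scaffold subunit of the BRCA1-A complex. It measured 0.235 and 0.229 RPKM with vehicle, 0.713 and 0.702 at 2 h and 0.459 and 0.583 at 4 h of CpdA, and 0.119 and 0.149 at 2 h and 0.198 and 0.167 at 4 h of Dex. All CpdA samples were above, and all Dex samples below, both vehicle samples. The limma log2 changes were 1.28 (SE 0.20, adjusted p = 0.00624) and 0.896 (SE 0.20, adjusted p = 0.0121) with CpdA, and -0.51 (SE 0.20, adjusted p = 0.167) and -0.23 (SE 0.20, adjusted p = 0.423) with Dex. At 2 h of CpdA the change was 1.27 (adjusted p = 0.0703) without CpdA 2 h replicate 1 and 1.29 (0.0636) without CpdA 2 h replicate 2. BRE itself read at 9.86 to 12.1 RPKM.

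Of the RNAs fixed for a known role, OIP5-AS1, the conserved RNA also called Cyrano, stood at 11.2 and 9.55 RPKM with vehicle, 7.82 and 8.96 at 4 h of Dex and 8.603 and 8.48 at 4 h of CpdA. Its limma log2 changes of -0.303 (SE 0.08, adjusted p = 0.0246) and -0.28 (SE 0.08, adjusted p = 0.047) were lost in 6 and 14 of 20 other settings, median scaling among both. EPB41L4A-AS1, a small nucleolar RNA host, changed at 4 h of Dex by 0.17 (SE 0.05, adjusted p = 0.0312) and LINC01003 at 4 h of CpdA by -0.36 (SE 0.08, adjusted p = 0.017), calls that were lost in 10 and 5 of 20 settings. With 1 library left out, such as vehicle replicate 1, which ended all 4 of these calls, the 4 changes ranged from -0.42 to -0.19, from -0.39 to -0.16, from 0.12 to 0.22 and from -0.39 to -0.33. ZEB1-AS1, TP73-AS1, NNT-AS1, LINC00467 and LINC00116, which encodes the mitochondrial microprotein mitoregulin, were not called in any treatment.

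The ligands were also compared directly at each time, although their doses differ. Dex and CpdA differed in 24 of the 302 at 2 h (7.95%; 17 higher and 7 lower with Dex), where 13.7% of all genes were called, 7.53% higher and 6.18% lower. At 4 h they differed in 69 (22.8%; 46 higher and 23 lower with Dex), where 33.4% of all genes were called, 15.4% higher and 18.0% lower. Genes of low level were called at 8.63% and 22.4%. At 2 h, 12 of the 17 RNAs higher with Dex were LINC (15% of the 80) and 5 antisense (2.25% of the 222), and at 4 h, 17 of the 46 were LINC (21.2%) and 29 antisense (13.1%). The count at 2 h was 13 without Dex 2 h replicate 2 and 12 and 13 without CpdA 2 h replicate 1 or 2.

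Past a 2-fold difference, 4 RNAs were higher and 1 lower with Dex than with CpdA at 2 h (1.36% and 0.944% of all genes), and 8 were higher and 2 lower at 4 h (2.6% and 1.75% of all genes). SH3RF3-AS1 was one of the 8, a gene chosen after its values were seen since it is outside the naming rule. It read at 1.41 and 1.39 RPKM with vehicle, 1.94 and 2.595 at 4 h of Dex and 0.907 and 1.08 at 4 h of CpdA, where the ligands differed by 1.102 (SE 0.14, adjusted p = 0.000316) by limma. Dex samples were above and CpdA samples below vehicle without overlap.

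From 2 h to 4 h of Dex, 20 of the 302 changed (6.62%; 7 rose and 13 fell) against 13.6% of all genes (4.55% rose and 9.02% fell), and from 2 h to 4 h of CpdA 22 changed (7.28%; 5 rose and 17 fell) against 12.4% (5.21% and 7.2%). Genes of low level were called at 10.7% and 5.7%. The split was 8 and 6 for Dex with quantile normalization and 8 and 8 with median scaling, and 7 and 13 for CpdA with quantile normalization. These contrasts set treated samples against each other, so time in culture and a change in ligand effect cannot be told apart. The counts rest on single libraries. For Dex the count was 5 and 6 without Dex 2 h replicate 1 or 2, 11 and 34 without Dex 4 h replicate 1 or 2, 12 without either CpdA 2 h replicate and 13 without either CpdA 4 h replicate, and for CpdA it was 1 and 2 without CpdA 2 h replicate 1 or 2 and 2 without either CpdA 4 h replicate. LINC00341 rose further with Dex between the times, by 1.04 (SE 0.15, adjusted p = 0.00212), and LINC00880 by 0.99 (SE 0.26, adjusted p = 0.035), both by limma.

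Each antisense RNA was then set beside the sense gene named in its symbol. The files held the sense gene of 220 of the 222, and in 194 pairs it passed the same minimum. On GRCh37 the exons of 140 pairs overlap, 33 pairs are divergent with no overlap, 13 overlap in their bodies but not their exons, 6 overlap by RefSeq with exons not compared and 2 were not placed. The antisense RNA was at a median of 11.9% of the sense gene's RPKM and under 10% in 90 pairs. It was below the sense gene in all 10 samples in 164 pairs and above it in all 10 in 22.

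Sense genes were called at larger shares than their antisense RNAs, a difference that was not tested. Of the 194, 31 sense genes were called at 2 h of Dex (16.0%), 69 at 4 h of Dex (35.6%), 13 at 2 h of CpdA (6.7%) and 47 at 4 h of CpdA (24.2%), against 10 (5.15%), 34 (17.5%), 3 (1.55%) and 25 (12.9%) of the antisense RNAs. In the same order, 10.3%, 27.4%, 6.18% and 20.5% of all genes were called. Both RNAs of a pair were called in 2 pairs at 2 h of Dex and 18 at 4 h of Dex, and in 9 at 4 h of CpdA. In 16 of the 18 they moved in one direction, as in the 2 and the 9, and in SH3BP5 and STARD4 they moved in opposite directions. Across the 194 pairs the log2 changes of antisense and sense had a Pearson r of 0.32, 0.32, 0.14 and 0.29 and a Spearman rho of 0.37, 0.34, 0.12 and 0.31 at 2 h and 4 h of Dex and 2 h and 4 h of CpdA. Both RNAs of a pair come from the same libraries, and pairs are not independent replicates. Whether both were called in more pairs than the separate shares would give was not tested.

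**Figure D4:**
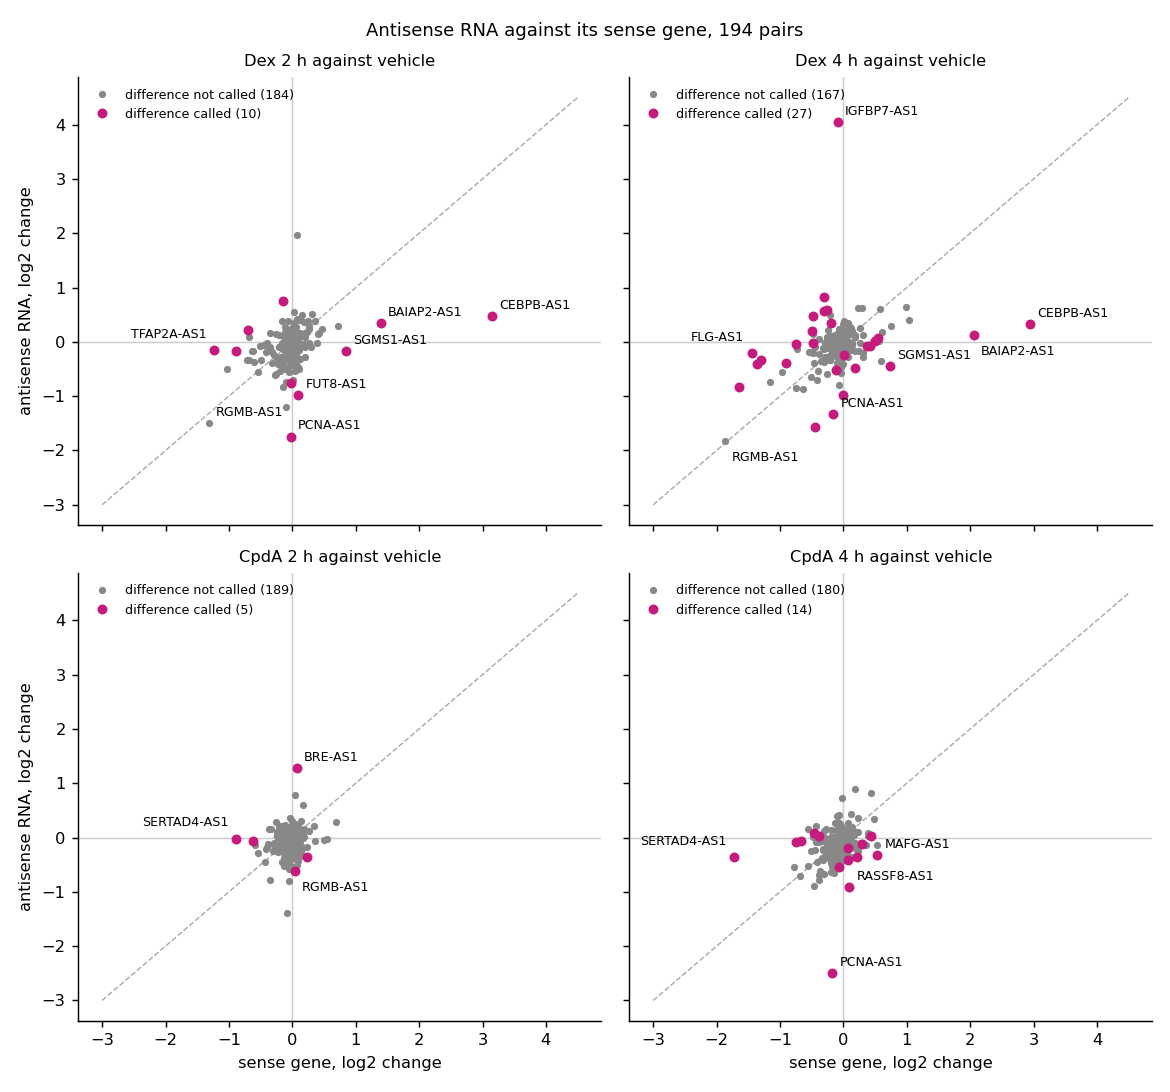
Log2 change of each antisense RNA (y axis) against that of its sense gene (x axis) over vehicle in the 194 pairs, with a panel for each treatment, coloured where their difference was called, and with a dashed line where both are equal. CEBPB-AS1 and BAIAP2-AS1 lie far to the right near 0 on the y axis with Dex, RGMB-AS1 lies near the dashed line at the lower left, and PCNA-AS1 lies below the rest near 0 on the x axis at 2 h of Dex and 4 h of CpdA.

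Whether antisense and sense moved by different amounts was tested in the same limma fit as the log2 change of the antisense minus that of the sense gene. The difference was called in 10 of 194 pairs at 2 h of Dex (5.15%; 4 toward the antisense and 6 toward the sense gene), 27 at 4 h of Dex (13.9%; 14 and 13), 5 at 2 h of CpdA (2.58%; 3 and 2, or 3 and 1 with median scaling) and 14 at 4 h of CpdA (7.22%; 5 and 9). At 4 h of Dex, 23 of the 27 were among the 140 pairs with overlapping exons, 1 among the 33 divergent pairs and 2 among the 13 whose bodies alone overlap. The count at 2 h of Dex was 6 without vehicle replicate 2 or Dex 2 h replicate 1. At 2 h of CpdA it was 1 without vehicle replicate 2, 3 without either Dex 2 h replicate, 8 without either Dex 4 h replicate, 0 without either CpdA 2 h replicate and 2 without either CpdA 4 h replicate. At 4 h of CpdA it was 6 without vehicle replicate 1 or either CpdA 2 h replicate and 5 without either CpdA 4 h replicate.

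RGMB was the only pair in which both RNAs were called past a fold change of 2. RGMB (chr5:98104354-98134347, plus strand) and RGMB-AS1 (chr5:98105322-98109173, minus strand) share 363 exon bases, 15.4% of the antisense exons. How far the parallel fall comes from reads shared by both rows was not tested. RGMB stood at 32.02 and 32.8 RPKM with vehicle, 12.99 and 12.9 at 2 h and 8.68 and 8.89 at 4 h of Dex, and 32.6 to 34.03 with CpdA. With Dex the sense gene changed by -1.32 and -1.87 on the log2 scale, against -1.49 and -1.82 for the antisense RNA, and the differences were -0.18 (SE 0.15, adjusted p = 0.582) and 0.05 (SE 0.15, adjusted p = 0.846) by limma. At 2 h of CpdA the antisense RNA alone was lower, with a difference of -0.66 (SE 0.15, adjusted p = 0.0331) that was lost in 10 of 20 other settings, such as leaving out vehicle replicate 2 or any Dex 2 h or CpdA library (-0.82 to -0.51).

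CEBPB gave the widest gap in which the sense gene moved and the antisense RNA was not called. CEBPB encodes a transcription factor of the basic leucine zipper family and works with GR at many genes. CEBPB read 25.5 and 26.9 RPKM with vehicle, 245 and 220.4 at 2 h and 207 and 198 at 4 h of Dex and 34.9 to 38.4 with CpdA, and CEBPB-AS1 read 0.4699 and 0.629 RPKM with vehicle, 0.822 and 0.771 at 2 h and 0.6996 and 0.711 at 4 h of Dex and 0.519 to 0.748 with CpdA. The sense gene rose by 3.14 and 2.94 on the log2 scale, against 0.47 (SE 0.15, adjusted p = 0.0953) and 0.32 (SE 0.15, adjusted p = 0.159) for the antisense RNA, although their exons (chr20:48807367-48809205, plus strand, and chr20:48801135-48808035, minus strand) share 231 bases, 8.7% of the antisense exons. The differences were -2.67 (SE 0.19, adjusted p = 1.58e-05) and -2.62 (SE 0.19, adjusted p = 8.24e-06) by limma.

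BAIAP2 and BAIAP2-AS1, now BAIAP2-DT, are a divergent pair whose starts are 241 bases apart in GENCODE (chr17:79008922-79091234, plus strand, and chr17:79002930-79008681, minus strand, GRCh37). BAIAP2 encodes a protein that shapes actin-rich membrane protrusions. BAIAP2 read 11.4 and 12.3 RPKM with vehicle, 30.4 and 32.5 at 2 h and 50.7 and 49.03 at 4 h of Dex and 10.99 and 12.3 at 4 h of CpdA. BAIAP2-AS1 read 3.18 and 2.77 RPKM with vehicle, 3.87 and 3.69 at 2 h and 3.17 and 3.32 at 4 h of Dex and 2.19 and 2.07 at 4 h of CpdA. The gene climbed at both times with Dex. The limma log2 change of the divergent RNA was 0.34 (SE 0.08, adjusted p = 0.031) at 2 h of Dex, 0.12 (SE 0.08, adjusted p = 0.307) at 4 h of Dex and -0.46 (SE 0.08, adjusted p = 0.00467) at 4 h of CpdA, where BAIAP2 changed by -0.03 (SE 0.06, adjusted p = 0.767). The differences with Dex were -1.06 (SE 0.14, adjusted p = 0.000819) and -1.94 (SE 0.14, adjusted p = 7.38e-06). The 300-base promoters of the pair are shown because the RNAs start near each other on opposite strands. By the RefSeq starts, which are 432 bases apart, the windows share 69 bases, and neither holds the half-site or the palindrome. BAIAP2-AS1 is at chr17:81034670-81034969 (minus strand) and BAIAP2 at chr17:81034901-81035200 (plus strand) of GRCh38.p14.
BAIAP2-AS1: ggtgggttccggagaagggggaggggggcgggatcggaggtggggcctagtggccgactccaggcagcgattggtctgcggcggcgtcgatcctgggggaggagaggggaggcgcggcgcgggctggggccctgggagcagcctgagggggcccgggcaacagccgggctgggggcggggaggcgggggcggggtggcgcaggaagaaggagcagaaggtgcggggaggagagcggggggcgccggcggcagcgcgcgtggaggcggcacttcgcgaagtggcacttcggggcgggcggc
BAIAP2: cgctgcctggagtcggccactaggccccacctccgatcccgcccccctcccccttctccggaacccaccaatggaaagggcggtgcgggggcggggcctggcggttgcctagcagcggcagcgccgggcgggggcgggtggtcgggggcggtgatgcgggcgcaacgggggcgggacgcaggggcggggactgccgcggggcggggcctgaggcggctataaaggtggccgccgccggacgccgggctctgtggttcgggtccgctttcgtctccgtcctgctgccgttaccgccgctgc

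**Figure D5:**
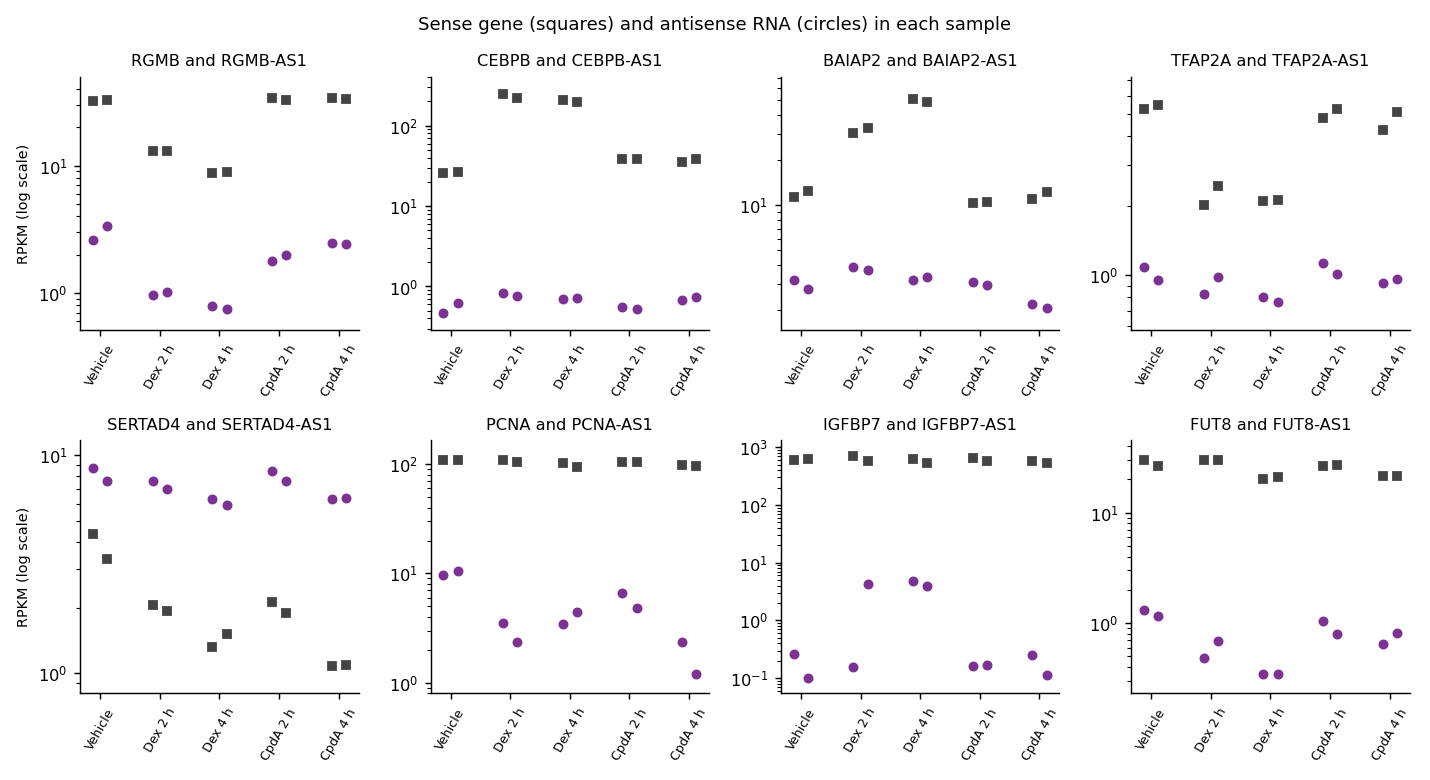
RPKM (y axis, log scale) of the sense gene (squares) and the antisense RNA (circles) of 8 pairs, by group (x axis), with a point for each replicate. RGMB and RGMB-AS1 fall in parallel with Dex, CEBPB and BAIAP2 rise over a nearly level antisense RNA, and PCNA stays near 100 RPKM over a PCNA-AS1 that falls from 9.597 and 10.4 to 2.38 and 1.2 RPKM at 4 h of CpdA.

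SGMS1, FLG, TFAP2A and SERTAD4 also moved apart from their antisense RNAs with Dex. SGMS1, a sphingomyelin synthase, rose from 15.02 and 14.2 to 23.9 and 24.9 RPKM at 4 h of Dex while SGMS1-AS1 went from 0.634 and 0.752 to 0.4496 and 0.509, a limma difference of -1.19 (SE 0.24, adjusted p = 0.0055). FLG, the epidermal filament-aggregating protein, fell from 1.56 and 1.72 to 0.403 and 0.708 RPKM while FLG-AS1 went from 0.714 and 0.637 to 0.527 and 0.615, a difference of 1.24 (SE 0.26, adjusted p = 0.00695). These sense genes moved and their antisense RNAs were not called.

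TFAP2A, the transcription factor AP-2 alpha, fell from 5.22 and 5.45 RPKM with vehicle to 2.003 and 2.44 at 2 h and 2.09 and 2.12 at 4 h of Dex, and TFAP2A-AS1 went from 1.08 and 0.951 to 0.829 and 0.976 at 2 h and 0.805 and 0.764 at 4 h. Their differences were 1.07 (SE 0.17, adjusted p = 0.00371) and 0.96 (SE 0.17, adjusted p = 0.0032) by limma, although the exons share 438 bases (25.9% of those of the antisense RNA). SERTAD4, a SERTA domain gene, fell with both ligands, from 4.33 and 3.33 RPKM with vehicle to 1.31 and 1.52 at 4 h of Dex, 2.12 and 1.896 at 2 h and 1.07 and 1.09 at 4 h of CpdA. SERTAD4-AS1, the more abundant RNA of the pair, went from 8.78 and 7.65 to 6.32 and 5.92 at 4 h of Dex, 8.501 and 7.64 at 2 h of CpdA and 6.33 and 6.36 at 4 h of CpdA. The limma differences were 0.95 (SE 0.13, adjusted p = 0.000641) at 4 h of Dex, 0.86 (SE 0.13, adjusted p = 0.00614) at 2 h of CpdA and 1.36 (SE 0.13, adjusted p = 0.000206) at 4 h of CpdA, and that at 2 h of CpdA was lost without either CpdA 2 h replicate (0.78 to 0.95 with 1 library left out).

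Opposite directions were called in 2 pairs at 4 h of Dex, named here because they are the only ones and not by the naming rule. STARD4-AS1 rose from 0.4897 and 0.484 RPKM with vehicle to 0.941 and 0.927, while STARD4, a sterol transfer protein, went from 29.1 and 24.5 to 20.5 and 22.6. The limma log2 changes were 0.82 (SE 0.16, adjusted p = 0.00492) and -0.31 (SE 0.09, adjusted p = 0.0271). SH3BP5-AS1 rose from 0.513 and 0.621 RPKM to 0.822 and 0.833 as SH3BP5 went from 6.12 and 8.04 to 4.91 and 5.096, with log2 changes of 0.48 (SE 0.14, adjusted p = 0.0275) and -0.48 (SE 0.11, adjusted p = 0.00897). The call of SH3BP5-AS1 was lost in 5 of 19 alternatives, such as without vehicle replicate 1 or either Dex 4 h replicate (0.36 to 0.598 with 1 library left out). Both members of the SH3BP5 pair were higher at 4 h of CpdA, SH3BP5-AS1 at 1.03 and 1.12 RPKM and SH3BP5 at 9.46 and 9.604.

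FUT8-AS1 and PCNA-AS1 fell further than their sense genes. FUT8 read 29.9 and 26.4 RPKM with vehicle, 29.9 and 29.99 at 2 h and 20.2 and 20.98 at 4 h of Dex, where it fell by 0.45 on the log2 scale (SE 0.06, adjusted p = 0.000371). Although 824 bases (54.2%) of the FUT8-AS1 exons lie in exons of FUT8, the differences were -1.07 (SE 0.23, adjusted p = 0.0152) and -1.13 (SE 0.23, adjusted p = 0.00523) by limma. The difference at 2 h was not called without either vehicle replicate or without Dex 2 h replicate 1 (-1.28 to -0.85 with 1 library left out). For PCNA the differences were -1.73 (SE 0.30, adjusted p = 0.00527) at 2 h and -1.17 (SE 0.30, adjusted p = 0.0176) at 4 h of Dex and -2.31 (SE 0.30, adjusted p = 0.000848) at 4 h of CpdA. The call at 2 h of Dex was lost without Dex 2 h replicate 2 (range with 1 library left out -1.98 to -1.47). The one at 4 h of Dex was lost without either vehicle replicate or Dex 4 h replicate 1 (-1.41 to -0.94). With no moderation both were lost (limma adjusted p = 0.0727 and 0.0954), and with no filter the one at 4 h (0.0647). IGFBP7-AS1 gave the widest difference of all at 4 h of Dex, 4.13 (SE 1.08, limma adjusted p = 0.0199). This call was lost with no filter (adjusted p = 0.0735) and with no moderation (0.107). It was also lost without either vehicle replicate or without Dex 4 h replicate 1 (3.68 to 4.58 with 1 library left out).

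With CpdA, ZBED5 and MAFG moved and their antisense RNAs were not called. With Dex both sense genes fell. ZBED5, which also fell with CpdA, did so by 0.38 and 0.31 on the log2 scale at 2 h and 4 h (limma adjusted p = 0.00172 and 0.00261). MAFG, which rose at 4 h of CpdA, fell with Dex by 0.45 and 0.36 (limma adjusted p = 0.00123 and 0.00222). ZBED5, a transposase-derived gene, fell from 11.3 and 11.9 RPKM with vehicle to 7.62 and 7.41 at 2 h and 7.05 and 7.54 at 4 h of CpdA, under ZBED5-AS1 at 21.9 to 25.96 RPKM in all samples. The limma differences were 0.56 (SE 0.10, adjusted p = 0.0112) and 0.600 (SE 0.10, adjusted p = 0.00283), the first of them lost without vehicle replicate 2 or either CpdA 2 h replicate (0.50 to 0.63 with 1 library left out). MAFG, a small Maf partner of NRF2, rose from 26.5 and 26.5 RPKM to 39.01 and 37.7 at 4 h of CpdA while MAFG-AS1 went from 2.52 and 2.895 to 2.18 and 2.12, a difference of -0.85 (SE 0.15, adjusted p = 0.00501).

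The nuclear receptor gene NR2F1 went from 3.05 and 3.42 RPKM to 1.89 and 1.897 at 4 h of CpdA and NR2F1-AS1 from 1.74 and 1.93 to 1.75 and 1.701, a limma difference of 0.66 (SE 0.13, adjusted p = 0.00722) that was lost without CpdA 4 h replicate 1 (0.63 to 0.68 with 1 library left out). NR2F1 fell with Dex too, by 0.62 at 2 h and 0.39 at 4 h (limma adjusted p = 0.00413 and 0.0204). The remaining called differences named by rule with CpdA were 1.22 (SE 0.26, adjusted p = 0.0254) for BRE-AS1 and -0.59 (SE 0.14, adjusted p = 0.0475) for CARD8-AS1 at 2 h of CpdA, and -1.01 (SE 0.27, adjusted p = 0.0315) for RASSF8-AS1 at 4 h of CpdA, all by limma. BRE-AS1 and RASSF8-AS1 were called themselves, whereas neither CARD8-AS1 (-0.36, adjusted p = 0.137) nor CARD8 (0.23, 0.278) was. The differences were lost in 8 of 19, 13 of 20 and 7 of 19 other settings, among them leaving out vehicle replicate 2 or either CpdA 2 h replicate in each. With 1 library left out they ranged from 1.15 to 1.28, from -0.62 to -0.55 and from -1.29 to -0.73.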

How the data were processed

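RNA from 10 samples of MDA-MB-231 cells was sequenced by the authors as 50-base single-end reads from TruSeq libraries that do not mark the strand, aligned with TopHat and quantified with Partek default settings. The submitters' processing notes name TopHat2 2.0.13, Bowtie, Partek 6.6 and hg19, with no role for the build. The deposited values are RPKM, 1 per symbol and sample, and how transcripts were combined is not given in the sources used here. The 12 chromatin samples were not analysed here. Groups were taken from the sample labels.

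RPKM were analysed as log2(RPKM + 0.1), a scale that understates changes of scarce RNAs, for the 12713 genes with at least 0.5 RPKM in at least 2 samples. The 5 groups entered a single limma model (limma 3.58.1, R 4.3.3, eBayes with an abundance trend), with Benjamini-Hochberg adjustment. For pairs, rows of the antisense minus the sense value were added to the same fit and adjusted with the genes. With 2 samples against 2, an exact permutation test cannot go below p = 0.333, so none was used for single RNAs. On simulated data for Dex 4 h against vehicle (12713 genes), 198 of 200 changed genes and 20 of 20 changed pairs were recovered. Each carried a change of the same size, under independent normal errors. The changed genes and the antisense RNAs of the changed pairs had a vehicle mean of log2(RPKM + 0.1) above 0. The changed genes included none of the antisense and LINC RNAs. There were 13 false calls among genes and 0 false calls among the 194 pairs. The mean recovered log2 change was 1.489. Recovery of smaller changes and of changes in scarcer RNAs was not tested. Recovery in the antisense and LINC RNAs taken alone was not tested. The members and lists were chosen with earlier results of these data known.

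Named were, for each treatment, up to 8 RNAs with the largest rise and up to 8 with the largest fall past a fold change of 2 with both treated replicates beyond both vehicle replicates, the 5 highest antisense and the 5 highest LINC RNAs, up to 6 pairs with the largest called difference and pairs with both RNAs past a fold change of 2, a fixed list of RNAs of known role, and those at the edge of the minimum. Reads and mapped totals were recovered from RPKM and RefSeq lengths: of 1682 short genes, 577 gave 1 common total. As they were recovered for 46.0% of these RNAs, no count test was run. Replicate numbers were not shown to pair the samples (mean correlation of deviations 0.0544, from -0.0568 to 0.198 over 10 pairs of groups). Alternatives comprised quantile normalization, median scaling, no moderation, moderation with no trend, only the 2 groups compared, the replicate number as a block, and each library left out, besides pseudocounts of 1 and 0.01, a filter on the mean and none. Positions come from GENCODE v44 lifted to GRCh37 and promoters from RefSeq. Software was Python 3.11.15 with matplotlib 3.10.9, scipy 1.17.1, pandas 2.3.3 and numpy 2.4.6.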

Additional observations from a re-analysis of the deposited data

Results flagged for a closer look

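Past a fold change of 2, 18 differences over 4 contrasts were called by the limma test of the difference, taken over all 302 RNAs. They set Dex against CpdA at the same time, or a ligand at 4 h against the same ligand at 2 h. Between times, treated samples were compared with no vehicle group for each time. Time in culture and a change in ligand effect therefore cannot be told apart there. Values are log2 differences, and the ligand doses differ.

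At 2 h, Dex minus CpdA was 1.41 (SE 0.26, adjusted p = 0.00551) for LINC00880, 1.18 (SE 0.15, adjusted p = 0.00056) for LINC00341, 1.18 (SE 0.11, adjusted p = 8.34e-05) for LINC00673 and 1.16 (SE 0.21, adjusted p = 0.0052) for LINC00511, higher with Dex in both replicates of each. It was -1.79 (SE 0.20, adjusted p = 0.00025) for BRE-AS1, higher with CpdA. Without moderation of the variance the adjusted p of LINC00880 was 0.0507, and the other 4 calls held in all their alternatives.

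At 4 h, Dex minus CpdA was 2.59 (SE 0.15, adjusted p = 1.56e-06) for LINC00341, 1.94 (SE 0.26, adjusted p = 0.00036) for LINC00880, 1.66 (SE 0.19, adjusted p = 0.000142) for LINC01085 and 1.36 (SE 0.21, adjusted p = 0.000957) for LINC00511, and -1.13 (SE 0.20, adjusted p = 0.00191) for BRE-AS1 and -1.56 (SE 0.12, adjusted p = 1.41e-05) for RGMB-AS1. IGFBP7-AS1 differed by 4.02 (SE 1.02, adjusted p = 0.0143), and this call was lost in 4 of 20 alternatives. Among them were no filter (adjusted p = 0.0577) and no moderation (0.0869). The difference was 3.88 without Dex 4 h replicate 1 and 3.66 without CpdA 4 h replicate 2. PCNA-AS1 differed by 1.16 (SE 0.30, adjusted p = 0.0148), with 0.98 (0.0646) without Dex 4 h replicate 2 and 0.69 (0.0979) without CpdA 4 h replicate 2. SH3RF3-AS1 differed by 1.102 (SE 0.14, adjusted p = 0.000316) and the call held in all 20 alternatives. BOK-AS1, outside the naming rule, differed by 1.25 (SE 0.36, adjusted p = 0.0259), and this call was lost in 5 of 19 alternatives, such as with no filter (adjusted p = 0.0773) or without either Dex 4 h replicate (0.0703 and 0.0711).

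Between times, Dex at 4 h minus 2 h was 1.04 (SE 0.15, adjusted p = 0.00212) for LINC00341 and 1.48 (SE 0.30, adjusted p = 0.0127) for LINC01564, the latter 1.03 (adjusted p = 0.07) without Dex 2 h replicate 1 and 1.31 (0.0657) without Dex 4 h replicate 1. CpdA at 4 h minus 2 h was -1.69 (SE 0.30, adjusted p = 0.00881) for PCNA-AS1, with -1.47 (0.0776) without CpdA 2 h replicate 1 and -1.22 (0.0546) without CpdA 4 h replicate 2.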

How the results depend on the processing

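Of the 73 values of named RNAs and pairs that passed the test, 0 changed sign under any alternative by limma; of the 67 that did not pass, 30 did. The leading direction of the calls changed in 25 of the counts under an alternative, among them RNAs at 4 h of Dex under both other scalings, given above, RNAs at 2 h of CpdA with no filter (6 up and 5 down), and pair differences at 4 h of CpdA, which were 6 and 4 without Dex 2 h replicate 1 and 24 and 13 with no filter. Of 120 counts under the 10 settings that leave out no library, 96 stayed within 1.5 times. In the order 2 h of Dex, 4 h of Dex, 2 h of CpdA and 4 h of CpdA, called pair differences were 34, 79, 8 and 37 with no filter (over 712 pairs) and 18, 41, 8 and 24 without the trend, and 6, 13, 2 and 7 with only the 2 groups compared. With a pseudocount of 1 they were 19 at 2 h of Dex, 9 at 2 h of CpdA and 26 at 4 h of CpdA, and with a filter on a mean of 1 RPKM they were 5 and 15 at 2 h and 4 h of Dex. Called antisense and LINC RNAs were 11 at 2 h of CpdA with no filter (over 1198 symbols) and 10 from 2 h to 4 h of Dex without moderation. With only the 2 groups compared they were 8 and 25 at 2 h and 4 h of Dex, 37 for Dex against CpdA at 2 h, 5 from 2 h to 4 h of Dex and 43 from 2 h to 4 h of CpdA.

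With each library left out, called RNAs ranged from 9 to 22 at 2 h of Dex, 31 to 51 at 4 h of Dex, 1 to 16 at 2 h of CpdA, 22 to 56 at 4 h of CpdA, 12 to 36 for Dex against CpdA at 2 h, 46 to 73 at 4 h, 5 to 34 from 2 h to 4 h of Dex and 1 to 30 from 2 h to 4 h of CpdA. Pair differences ranged from 6 to 13, 19 to 31, 0 to 8 and 5 to 21 in the order of treatments above. A group left with 1 sample was assumed to vary like the others. In a fit with a replicate block the counts were 21, 61, 9 and 48 RNAs and 13, 29, 5 and 19 pairs over vehicle, and 26 and 75 between ligands and 26 and 23 between times. The numbers were not shown to pair the samples. Of the values of named RNAs and pairs under the alternatives, 2601 kept their side of the threshold, 150 lost and 19 gained a call. A change not called is not shown to be absent, and how far a call depends on read depth was not tested.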

Other observations

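Long noncoding RNAs named in other ways were also counted. Of 30 listed, 25 were in the tables and 18 passed the minimum. In limma, 1 rose at 2 h of Dex, 2 rose and 2 fell at 4 h of Dex, 1 rose at 2 h of CpdA, and 3 rose and 1 fell at 4 h of CpdA. These are 5.56%, 22.2%, 5.56% and 22.2% of the 18, against 10.3%, 27.4%, 6.18% and 20.5% of all genes. UCA1, a bladder cancer-associated RNA, went from 2.48 and 2.98 RPKM with vehicle to 5.45 and 4.88 at 4 h of Dex and 3.16 and 3.097 at 4 h of CpdA, a log2 change of 0.899 (SE 0.09, adjusted p = 9.86e-05) with Dex. MIR22HG, the host of miR-22, went from 23.4 and 29.00 RPKM to 36.7 and 29.5 and 63.4 and 59.4, 1.23 (SE 0.12, adjusted p = 0.000177) with CpdA. DLEU1 and HCP5 fell at 4 h of Dex, by 0.63 and 0.56 on the log2 scale (adjusted p = 0.000664 and 0.0118), and MALAT1 and NEAT1, the abundant nuclear RNAs, were not called in any treatment.

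LINC00472, chosen after its values were seen, was lower in every treated sample than in the vehicle samples. It read 5.28 and 5.25 RPKM with vehicle, 3.899 and 4.23 at 2 h and 3.36 and 3.19 at 4 h of Dex and 3.95 and 4.05 at 2 h and 3.17 and 3.23 at 4 h of CpdA. The limma log2 changes were -0.37 (SE 0.07, adjusted p = 0.00596), -0.67 (SE 0.07, adjusted p = 6.54e-05), -0.39 (SE 0.07, adjusted p = 0.00942) and -0.701 (SE 0.07, adjusted p = 0.000156), and the direct contrast of the ligands was 0.02 (SE 0.07, adjusted p = 0.907) at 2 h and 0.03 (SE 0.07, adjusted p = 0.762) at 4 h. The 4 changes share the same vehicle samples. Those at 2 h were not called without Dex 2 h replicate 1 (-0.31, adjusted p = 0.0683) and without CpdA 2 h replicate 1 (-0.37, 0.103) or 2 (-0.403, 0.0716).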
